A study of Homo sapiens with 24 samples.

Results

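The genes described here are the 10 genes of major histocompatibility complex (MHC) class I presentation B2M, TAP1, TAP2, TAPBP, NLRC5, PSMB8, PSMB9, HLA-E, HLA-F and ERAP1, measured in HCT116, an established cell line from a human colorectal carcinoma. They were chosen by name, and a probe set of the Affymetrix HG-U133 Plus 2.0 array was taken as theirs where the array's gene table gave it that single symbol. This gave 25 of the array's 54675 probe sets, of which 22 passed a filter on low values (a log2 level of 5 on at least 2 arrays). All 10 genes were among the 18055 genes tested. The study compared cells treated for 72 h with cells given the solvent dimethyl sulfoxide (DMSO). The treatments were the DNA methyltransferase inhibitors decitabine (DAC) and azacytidine (Aza) and the compounds G669071, G668684 and G669043. The sample titles label these compounds phos, ester and Aza, in that order, and do not explain the words. In this text Aza alone means azacytidine. The 24 arrays formed 11 groups, with 2 arrays for each of 10 treated groups and 4 for DMSO. The doses were 5 µM or 120 nM for DAC, 7 µM or 150 nM for G668684, and 1500 nM or 150 nM for both G669043 and Aza. The labels of G669071 contradict each other, with 63 µM and 6 µM in the titles but 120 nM and 6 nM in the source names, and its doses are therefore given only as higher and lower. All groups were the same cell line, and every compound stock was dissolved in the solvent that the control cells received. Whether arrays of a group stem from separate cultures is not stated in the labels, and p-values then measure only the spread between arrays, which may be technical.

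Class I molecules show short peptides from inside the cell to CD8+ T cells and natural killer cells. The proteasome cuts proteins into peptides, the TAP1 and TAP2 transporter carries them into the endoplasmic reticulum, ERAP1 trims them, and tapasin (TAPBP) helps to load them onto a heavy chain bound to beta-2 microglobulin (B2M). PSMB8 and PSMB9 replace constitutive catalytic subunits to form the immunoproteasome. HLA-E and HLA-F are heavy chains of low polymorphism, and NLRC5 is a transactivator of class I genes. Interferon raises most of these genes in many cell types, and DNA methylation of class I genes has been described in tumours.

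The promoters of TAP1, PSMB9, PSMB8 and TAPBP are shown because these 4 genes carried the largest calls and did not move together. Each line gives the 250 bases before an annotated start, from RefSeq on GRCh38.p14, written 5′ to 3′ on the gene's strand. Capitals mark matches to an interferon response (ISRE-like) motif (GAAA, any 2 bases, GAAA), to an interferon gamma activation (GAS-like) motif TTCNNNGAA or to the cyclic AMP response core TGACGT, searched on both strands.
TAP1, chr6:32853705-32853954, minus strand: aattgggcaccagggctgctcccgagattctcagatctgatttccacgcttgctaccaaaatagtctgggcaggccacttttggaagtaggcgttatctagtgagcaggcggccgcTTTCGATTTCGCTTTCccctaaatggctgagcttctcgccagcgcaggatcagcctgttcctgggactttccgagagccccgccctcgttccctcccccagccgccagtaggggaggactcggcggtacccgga
PSMB9, chr6:32853942-32854191, plus strand: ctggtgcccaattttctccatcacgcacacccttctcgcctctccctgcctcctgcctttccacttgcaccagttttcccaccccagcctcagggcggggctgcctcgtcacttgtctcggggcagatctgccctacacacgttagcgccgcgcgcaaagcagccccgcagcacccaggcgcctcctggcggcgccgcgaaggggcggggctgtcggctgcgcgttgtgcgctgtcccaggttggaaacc
PSMB8 first start, chr6:32844680-32844929, minus strand: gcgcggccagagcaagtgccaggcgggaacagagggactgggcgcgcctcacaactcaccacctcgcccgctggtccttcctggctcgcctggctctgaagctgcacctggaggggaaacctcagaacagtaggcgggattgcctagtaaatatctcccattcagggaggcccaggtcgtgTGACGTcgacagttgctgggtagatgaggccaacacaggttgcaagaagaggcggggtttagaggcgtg
PSMB8 second start, chr6:32844048-32844297, minus strand: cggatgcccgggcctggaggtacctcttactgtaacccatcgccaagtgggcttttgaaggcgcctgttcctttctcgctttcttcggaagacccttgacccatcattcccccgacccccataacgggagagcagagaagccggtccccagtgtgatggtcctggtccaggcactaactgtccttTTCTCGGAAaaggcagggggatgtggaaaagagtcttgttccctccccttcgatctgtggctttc
TAPBP, chr6:33314079-33314328, minus strand: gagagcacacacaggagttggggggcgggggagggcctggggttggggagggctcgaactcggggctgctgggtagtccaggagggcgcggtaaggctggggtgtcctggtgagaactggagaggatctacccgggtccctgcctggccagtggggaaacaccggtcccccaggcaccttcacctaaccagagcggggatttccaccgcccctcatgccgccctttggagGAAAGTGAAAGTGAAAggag
The window of the first TAP1 start held 2 ISRE-like matches that overlap, and so did the TAPBP window. A second TAP1 start, not shown, had no ISRE-like match, 1 GAS-like match and 11 CpG sites in its window. The PSMB9 window held none of the 3 motifs. TAP1 and PSMB9 are read in opposite directions, and their windows share their far ends. PSMB8 had a response core match before its first start and a GAS-like match before its second. Among 35116 windows of this length in the RefSeq table, 3.02% held an ISRE-like, 6.57% a GAS-like and 7.1% a response core match. The windows of TAP1 (first start), PSMB9, PSMB8 (first and second start) and TAPBP held 16, 21, 14, 11 and 10 CpG sites, against a median of 11 over all windows. Of the other members, the B2M window held 2 ISRE-like matches, the TAP2 and HLA-F windows 1 each, and the windows of the 2 ERAP1 starts none. HLA-E and NLRC5 were not matched. A match is a run of letters and not a measured binding site.

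The values were robust multi-array average (RMA) intensities, taken as log2, so a difference of 1 is a doubling in brightness of the same probe set. Array medians lay between 6.46 and 6.58. The DMSO arrays stood in pairs: across genes, replicates 1 and 2 correlated at 0.9967 and replicates 3 and 4 at 0.9969, while correlations between the pairs lay from 0.9904 to 0.9912. The beta-actin 3′ minus 5′ control differed in the same way, at -0.03 and 0 in the first pair and at 0.24 and 0.15 in the second. Of 12 intestinal epithelial markers, the general epithelial genes EPCAM, KRT8, KRT18, KRT19 and CDH1 averaged between 10.3 and 13.69 in DMSO, and the other 7, among them CDX2, VIL1 and KRT20, between 5.87 and 7.41. The mean over the 12 lay between 9.2 and 9.68 on treated arrays and between 9.13 and 9.24 on DMSO arrays. KRT20 moved far within it, from an average of 5.87 in DMSO to a maximum of 9.56. Of the 12, 6 rose with G668684 at 7 µM, where 17.5% of all genes did. With G669043 at 150 nM 0 rose, where 0.709% of all genes did. With Aza at 1500 nM 4 rose and 1 fell, where 8.13% and 9.18% of all genes did. The part of these marker changes in the results was not tested. Of 12 leukocyte markers with a probe set, PTPRC did not pass the filter. CD79A, CD3E and MS4A1 averaged 8.23, 8.15 and 7.52 in DMSO. The mean over the 11 that passed lay between 6.39 and 6.76 on treated arrays and between 6.48 and 6.69 on DMSO arrays. Of the fibroblast and endothelial markers, COL3A1 and LUM did not pass, while COL1A1 averaged 9.98 in DMSO. The mean over the 10 that passed lay between 6.87 and 7.13 on treated arrays and between 6.82 and 7.02 on DMSO arrays. In bulk RNA, fewer cells expressing a gene and less RNA per cell cannot be told apart.

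Changes were small and ran in both directions within the pathway. Over the 10 comparisons with DMSO, which share the 4 DMSO arrays, 34 of 100 gene tests passed an adjusted p of 0.05 (limma, Benjamini-Hochberg over all genes of a comparison, 2-sided), 22 of them higher and 12 lower. The folds lay between 0.6655 and 1.765. With DAC at 5 µM, 3 members rose and 2 fell, where 18% of all genes rose and 14.2% fell (32.2% called). With DAC at 120 nM, 2 rose and 1 fell, where 12.5% and 9.9% of all genes did (22.4% called). The higher dose of G669071 raised 3 and lowered 3, with 15.8% and 13.7% of all genes moving so (29.5% called), and the lower dose raised 2 and lowered 0, against 8.68% and 6.91% of all genes (15.6% called). G668684 raised 4 and lowered 2 at 7 µM, against 17.5% and 14.7% of all genes (32.2% called), and raised 2 and lowered 2 at 150 nM, against 10.7% and 10.4% (21.1% called). G669043 raised 2 at 1500 nM, where 5.88% of all genes rose, 3.25% fell and 9.12% were called, and changed 0 at 150 nM, where 0.709% rose, 0.161% fell and 0.87% were called. At 150 nM of G669043, 1 member had an unadjusted p under 0.05. Aza raised 3 and lowered 2 at 1500 nM, against 8.13% and 9.18% of all genes (17.3% called), and raised 1 at 150 nM, where 1.03% rose, 0.46% fell and 1.49% were called. With 10 genes, no excess of calls over these shares was read from the counts. Statements below that arrays of 2 groups did not overlap only describe those arrays. The share of all genes without overlap is not given here. The median log2 change of the members lay between -0.07 and 0.12, beside medians of all genes between -0.04 and 0.03.

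**Figure D1:**
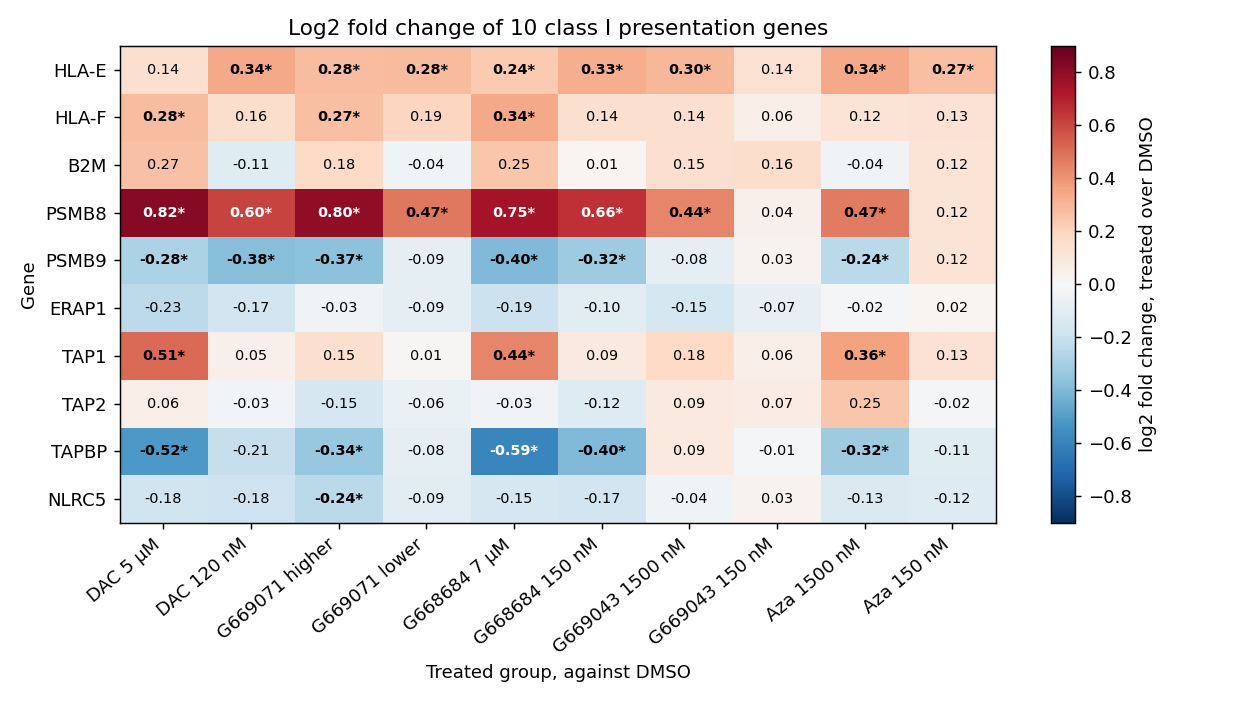
Log2 fold change over DMSO of each gene (rows) in each treated group (columns), by colour and number. An asterisk and bold type mark an adjusted p under 0.05 (limma). PSMB8 and HLA-E are raised in 8 of 10 groups each, PSMB9 is lowered in 6 and TAPBP in 5, and the column of G669043 at 150 nM holds no mark.

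PSMB8, the chymotrypsin-like subunit of the immunoproteasome, had the largest rise among the members. It read 6.16 and 6.29 log2 with DAC at 5 µM and 6.11 and 5.91 at 120 nM, against 5.46, 5.57, 5.12 and 5.47 in DMSO. It read 6.08 and 6.32 with G669071 at the higher dose, 5.84 and 5.92 at the lower dose, 6.05 and 6.26 with G668684 at 7 µM, and 6.21 and 5.92 at 150 nM. All of these arrays lay above all 4 DMSO arrays. It read 5.92 and 5.77 with G669043 at 1500 nM, 5.49 and 5.41 at 150 nM, 5.99 and 5.75 with Aza at 1500 nM, and 5.57 and 5.48 at 150 nM. The arrays of both compounds lay above DMSO at 1500 nM and among the DMSO arrays at 150 nM. PSMB8 rose by 0.82 ± 0.12 with DAC at 5 µM (log2 ± SE, limma adjusted p = 2.23e-05), by 0.80 with the higher dose of G669071 (adjusted p = 3.66e-05), by 0.75 with G668684 at 7 µM (adjusted p = 6.33e-05), by 0.66 with G668684 at 150 nM (adjusted p = 0.000493) and by 0.60 with DAC at 120 nM (adjusted p = 0.00101). These 5 calls held without any single array. It rose by 0.47 with the lower dose of G669071 (adjusted p = 0.0106), by 0.47 with Aza at 1500 nM (adjusted p = 0.0111) and by 0.44 with G669043 at 1500 nM (adjusted p = 0.0275). Those 3 calls were lost against DMSO replicates 1 and 2 alone, where the changes were 0.36 (adjusted p = 0.0544), 0.35 (adjusted p = 0.061) and 0.33 (adjusted p = 0.0759). The G669043 call was also lost without DMSO replicate 3 (0.34, adjusted p = 0.0598) and without its own replicate 1 (0.36, adjusted p = 0.261) or 2 (0.52, adjusted p = 0.103). The Aza call was lost without its replicate 1 (0.34, adjusted p = 0.187), and the G669071 call without its replicate 1 (0.52, adjusted p = 0.0601) or 2 (0.43, adjusted p = 0.128). Of all genes tested, 2.7% were called higher in at least 8 of the 10 comparisons. In DMSO the gene lay near the filter level of 5, where the values hold no detection calls.

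PSMB9, the other immunoproteasome subunit of the MHC region, moved the opposite way. It read 7.23 and 7.28 with DAC at 5 µM and 7.21 and 7.11 at 120 nM, against 7.47, 7.66, 7.48 and 7.55 in DMSO. It read 7.14 and 7.20 with G669071 at the higher dose, 7.04 and 7.25 with G668684 at 7 µM, 7.19 and 7.25 at 150 nM, and 7.33 and 7.26 with Aza at 1500 nM. Every one of these arrays lay below all DMSO arrays. It read 7.38 and 7.52 with G669071 at the lower dose, 7.53 and 7.39 with G669043 at 1500 nM, 7.62 and 7.52 at 150 nM, and 7.67 and 7.66 with Aza at 150 nM. These arrays overlapped the DMSO range, apart from 1 Aza array at 7.67 just above it and 2 arrays just below it. PSMB9 fell by 0.40 ± 0.08 with G668684 at 7 µM (limma adjusted p = 0.000507), by 0.38 with DAC at 120 nM (adjusted p = 0.00124), by 0.37 with the higher dose of G669071 (adjusted p = 0.00103), by 0.32 with G668684 at 150 nM (adjusted p = 0.00549), by 0.28 with DAC at 5 µM (adjusted p = 0.00787) and by 0.24 with Aza at 1500 nM (adjusted p = 0.0364). The Aza call was lost against DMSO replicates 1 and 2 alone (-0.27, adjusted p = 0.0538) and 3 and 4 alone (-0.22, adjusted p = 0.0611). It was also lost without any of 4 arrays, at -0.21 without its replicate 2 (adjusted p = 0.267), -0.28 without its replicate 1 (adjusted p = 0.0967), -0.20 without DMSO replicate 2 (adjusted p = 0.0803) and -0.24 without DMSO replicate 4 (adjusted p = 0.0631). The call for DAC at 5 µM was lost without its replicate 1 (-0.26, adjusted p = 0.0828) and that for G668684 at 150 nM without its replicate 1 (-0.29, adjusted p = 0.0801). Of all genes, 5.12% were called lower in at least 6 comparisons. PSMB10, the third immunoproteasome subunit, encoded outside the MHC region and not a member here, rose by 0.71 with G668684 at 7 µM, 0.65 with DAC at 5 µM, 0.48 with Aza at 1500 nM, 0.32 with the higher dose of G669071 and 0.26 with G669043 at 1500 nM.

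**Figure D2:**
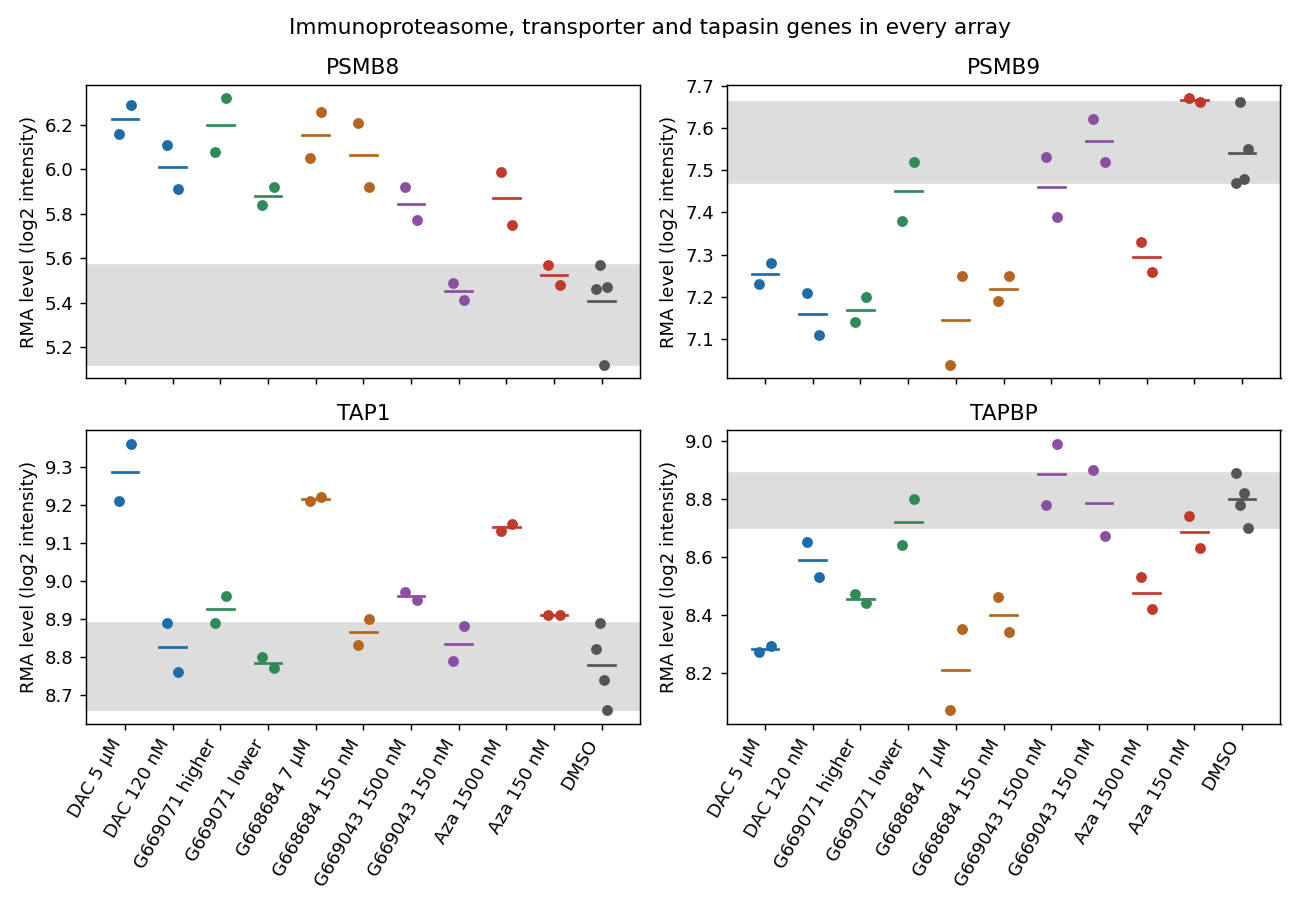
RMA level (log2 intensity) of PSMB8, PSMB9, TAP1 and TAPBP on every array. Points are arrays, short lines are group means and the grey band spans the 4 DMSO arrays. PSMB8 lies above the band and PSMB9 below it in most treated groups, TAP1 lies clearly above it with DAC at 5 µM, G668684 at 7 µM and Aza at 1500 nM, and TAPBP lies below it in the groups that were called.

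TAP1, one chain of the peptide transporter, rose with 3 of the 10 treatments, and 16.1% of all genes were called higher in at least 3. It read 9.21 and 9.36 with DAC at 5 µM and 8.89 and 8.76 at 120 nM, against 8.82, 8.89, 8.74 and 8.66 in DMSO. It read 9.21 and 9.22 with G668684 at 7 µM, 8.83 and 8.90 at 150 nM, 9.13 and 9.15 with Aza at 1500 nM and 8.91 and 8.91 at 150 nM. With DAC and G668684 the arrays of the higher dose lay well above DMSO and those of the lower dose among or beside the DMSO arrays. It read 8.89 and 8.96 with G669071 at the higher dose, 8.80 and 8.77 at the lower dose, 8.97 and 8.95 with G669043 at 1500 nM and 8.79 and 8.88 at 150 nM. TAP1 rose by 0.51 ± 0.07 with DAC at 5 µM (limma adjusted p = 9.35e-06), 0.44 with G668684 at 7 µM (adjusted p = 5.36e-05) and 0.36 with Aza at 1500 nM (adjusted p = 0.00104). These calls held without any single array. Against DMSO replicates 3 and 4 alone TAP1 also passed with G669043 at 1500 nM (0.26, adjusted p = 0.019) and the higher dose of G669071 (0.23, adjusted p = 0.0197), and its changes against all 4 DMSO arrays there were 0.18 and 0.15. TAP1 and PSMB9, whose promoter windows meet, were called in opposite directions with DAC at 5 µM, G668684 at 7 µM and Aza at 1500 nM.

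TAP2, the other chain of the transporter, passed the test in no group. The probe set with the highest mean read 9.00 and 8.93 with Aza at 1500 nM, against 8.79, 8.81, 8.55 and 8.71 in DMSO, and its changes lay between -0.15 and 0.25 over the 10 treated groups. Its Aza arrays lay above DMSO, and the difference passed against DMSO replicates 3 and 4 alone (0.33, adjusted p = 0.0197) and with arrays quantile normalized again (0.31, adjusted p = 0.0362). A second probe set of similar brightness, 225973_at, read 8.45 and 8.50 with the higher dose of G669071, 8.45 and 8.55 with the lower dose and 8.41 and 8.66 with G668684 at 150 nM, against 8.66, 8.80, 9.06 and 8.80 in DMSO. When each probe set was tested alone, 225973_at was lower in these 3 groups, by 0.35 (adjusted p = 0.0117), 0.33 (adjusted p = 0.0358) and 0.29 (adjusted p = 0.0473). Another, 204770_at, was lower with G668684 at 7 µM (-0.29, adjusted p = 0.0228). Whether TAP2 was called thus depended on the probe set.

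TAPBP encodes tapasin, which holds the empty class I molecule beside the transporter. It read 8.27 and 8.29 with DAC at 5 µM and 8.65 and 8.53 at 120 nM, against 8.89, 8.78, 8.82 and 8.70 in DMSO. It read 8.07 and 8.35 with G668684 at 7 µM, 8.46 and 8.34 at 150 nM, 8.47 and 8.44 with G669071 at the higher dose, and 8.53 and 8.42 with Aza at 1500 nM. All of these arrays lay below the lowest DMSO array. It read 8.64 and 8.80 with G669071 at the lower dose, 8.78 and 8.99 with G669043 at 1500 nM, 8.90 and 8.67 at 150 nM, and 8.74 and 8.63 with Aza at 150 nM, and these groups overlapped DMSO. TAPBP fell by 0.59 ± 0.09 with G668684 at 7 µM (limma adjusted p = 3.99e-05), 0.52 with DAC at 5 µM (adjusted p = 0.00016), 0.40 with G668684 at 150 nM (adjusted p = 0.00344), 0.34 with the higher dose of G669071 (adjusted p = 0.00701) and 0.32 with Aza at 1500 nM (adjusted p = 0.0186). The first 2 of these held without any single array. The call was lost for G668684 at 150 nM without its replicate 2 (-0.34, adjusted p = 0.0671), for G669071 without its replicate 2 (-0.33, adjusted p = 0.0683) and for Aza without its replicate 1 (-0.38, adjusted p = 0.0525) or 2 (-0.27, adjusted p = 0.214). All 5 calls came from the brightest probe set, 208829_at. The other 2 kept probe sets of TAPBP were called in 0 groups when tested alone. Of all genes, 7.36% were called lower in at least 5 comparisons.

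HLA-E, a heavy chain that presents signal peptides to natural killer cell receptors, was called higher in 8 groups, and the calls rest on probe sets of one kind. The brightest, 200905_x_at, read 10.03 and 10.06 with DAC at 5 µM and 10.31 and 10.18 at 120 nM, against 9.85, 10.01, 9.94 and 9.81 in DMSO. Over all 20 treated arrays it lay between 10.03 and 10.31, above all 4 DMSO arrays. Its rise was 0.34 ± 0.06 with DAC at 120 nM (limma adjusted p = 0.000488), 0.34 with Aza at 1500 nM (adjusted p = 0.000855), 0.33 with G668684 at 150 nM (adjusted p = 0.000817), 0.30 with G669043 at 1500 nM (adjusted p = 0.00497), 0.28 with the lower dose of G669071 (adjusted p = 0.00414), 0.28 with the higher dose (adjusted p = 0.00211), 0.27 with Aza at 150 nM (adjusted p = 0.0352) and 0.24 with G668684 at 7 µM (adjusted p = 0.00664). The suffix _x_at marks probe sets whose probes may bind transcripts of more than one gene, and which transcripts these bind was not tested. The probe set without that suffix, 200904_at, read 7.14 and 7.17 with DAC at 5 µM, 7.22 and 7.21 with the higher dose of G669071 and 7.09 and 7.34 with G668684 at 7 µM, against 7.49, 7.53, 7.61 and 7.36 in DMSO. Tested alone it was lower in these 3 groups, by 0.34 (adjusted p = 0.00471), 0.28 (adjusted p = 0.0191) and 0.28 (adjusted p = 0.0179), and its arrays lay below all DMSO arrays. The third probe set, 217456_x_at, was higher in 8 groups when tested alone. The direction of HLA-E in those 3 groups therefore turned with the probe set. The call for Aza at 150 nM was lost against DMSO replicates 1 and 2 alone (0.24, adjusted p = 0.06), without DMSO replicate 1 (0.26, adjusted p = 0.0636) or 4 (0.24, adjusted p = 0.0904) and without its own replicate 1 (0.21, adjusted p = 0.618) or 2 (0.34, adjusted p = 0.118). The call was lost for G669071 at the higher dose without its replicate 2 (0.24, adjusted p = 0.0527), for the lower dose without its replicate 1 (0.28, adjusted p = 0.056) or 2 (0.29, adjusted p = 0.0502), for G668684 at 7 µM without its replicate 1 (0.24, adjusted p = 0.0504) and for G669043 at 1500 nM without its replicate 1 (0.30, adjusted p = 0.0535) or 2 (0.30, adjusted p = 0.0687). With DAC at 5 µM it passed without DMSO replicate 2 (0.18, adjusted p = 0.037). With arrays quantile normalized again, HLA-E calls were lost in 3 groups. These were G668684 at 7 µM (0.185, adjusted p = 0.0923), G669043 at 1500 nM (0.26, adjusted p = 0.0522) and Aza at 150 nM (0.25, adjusted p = 0.159). Of all genes, 2.7% were called higher in at least 8 comparisons.

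HLA-F, a heavy chain that can reach the cell surface without peptide, rose in 3 groups and shared the same limit. Its brightest probe set, 221875_x_at, read 10.61 and 10.67 with G668684 at 7 µM, 10.57 and 10.58 with DAC at 5 µM and 10.59 and 10.55 with the higher dose of G669071, against 10.26, 10.43, 10.28 and 10.22 in DMSO. In these groups both arrays lay above all DMSO arrays. The rises were 0.34 ± 0.07 (limma adjusted p = 0.000436), 0.28 (adjusted p = 0.00294) and 0.27 (adjusted p = 0.00362). The last call did not hold when that group's replicate 1 was left out (0.25, adjusted p = 0.0521). Without DMSO replicate 2 the gene also passed with DAC at 120 nM (0.20, adjusted p = 0.0279), the lower dose of G669071 (0.24, adjusted p = 0.0145) and G668684 at 150 nM (0.19, adjusted p = 0.0429), and with DAC at 120 nM also without that group's replicate 2 (0.27, adjusted p = 0.0156). Against DMSO replicates 3 and 4 alone these groups passed as well, at 0.20 (adjusted p = 0.0282), 0.24 (adjusted p = 0.0129) and 0.19 (adjusted p = 0.0407). With arrays quantile normalized again, the HLA-F calls were lost for DAC at 5 µM (0.219, adjusted p = 0.0721) and the higher dose of G669071 (0.241, adjusted p = 0.0508). The other _x_at probe set was called higher in 4 groups. The probe set without the suffix, 221978_at, was called in 0 groups and read 6.37 and 6.37 with G668684 at 7 µM, against 6.52, 6.39, 6.23 and 6.42 in DMSO. Cross-binding to other class I transcripts was not tested. Of all genes, 16.1% were called higher in at least 3 of the comparisons with DMSO.

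**Figure D3:**
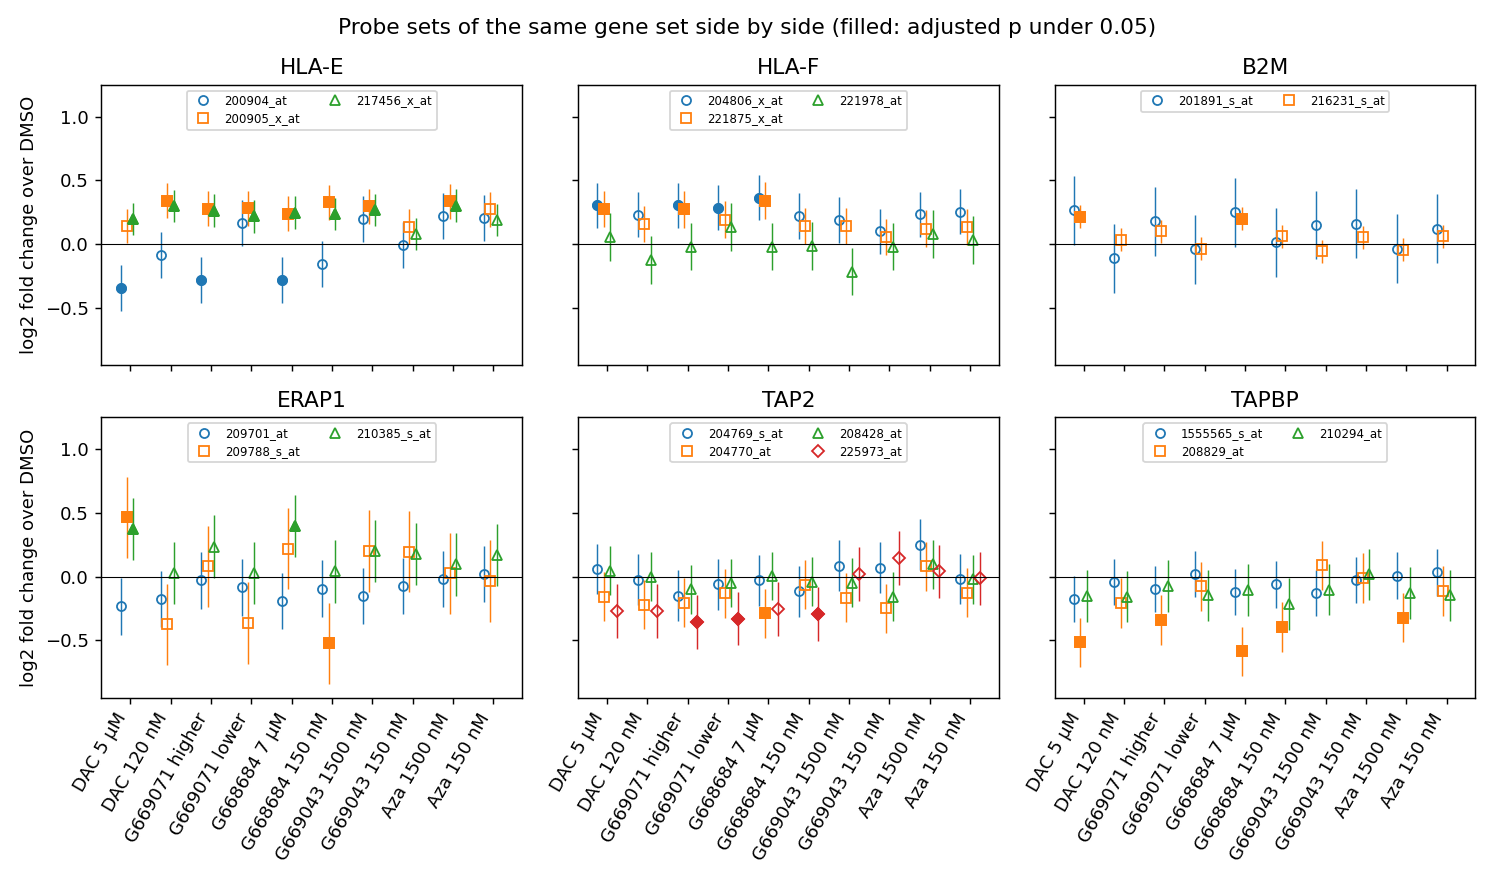
Log2 fold change over DMSO (vertical axis) of every kept probe set of 6 genes in each treated group. Symbols and colours mark probe sets, bars are 95% intervals and filled symbols passed an adjusted p of 0.05 over all probe sets. In HLA-E the probe set 200904_at is lower in 3 groups where those ending in _x_at are at or above 0, and in TAPBP all 5 filled symbols belong to 208829_at.

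B2M, the light chain that all class I molecules share, was not called against all 4 DMSO arrays in any group, and its value depended on which DMSO arrays were used. Its brightest probe set read 13.54 and 13.53 with DAC at 5 µM and 12.86 and 13.46 at 120 nM, against 13.11 and 12.98 for DMSO replicates 1 and 2 and 13.50 and 13.49 for replicates 3 and 4. Treated arrays lay between 12.86 and 13.54, so the DMSO arrays spanned most of the treated range. Against replicates 1 and 2 alone B2M passed as higher in 5 groups: by 0.49 with DAC at 5 µM (limma adjusted p = 0.00186), 0.47 with G668684 at 7 µM (adjusted p = 0.00248), 0.41 with the higher dose of G669071 (adjusted p = 0.00845), 0.39 with G669043 at 150 nM (adjusted p = 0.0182) and 0.38 with G669043 at 1500 nM (adjusted p = 0.0316). Against replicates 3 and 4 alone it passed as lower with DAC at 120 nM (-0.34, adjusted p = 0.0291). With all DMSO arrays the DAC changes were 0.27 ± 0.13 at 5 µM and -0.11 at 120 nM. The first passed without DMSO replicate 3 (0.34, adjusted p = 0.0455) and the second without replicate 2 of its own group (-0.41, adjusted p = 0.0275). The beta-actin 3′ minus 5′ control, which was higher in DMSO replicates 3 and 4, read -0.06 and 0.09 on the arrays of DAC at 120 nM and 0.07 and 0.34 on those of G669043 at 1500 nM, the last being the highest of all arrays, and its part in these values was not tested. The second probe set, 216231_s_at, varied less, at 13.36 and 13.38 with DAC at 5 µM and 13.38 and 13.33 with G668684 at 7 µM, against 13.10, 13.12, 13.17 and 13.23 in DMSO. Tested alone it was higher in both groups, by 0.22 (adjusted p = 0.000645) and 0.20 (adjusted p = 0.00127), and its arrays there did not overlap DMSO.

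ERAP1, the aminopeptidase that trims peptides to length, passed in no group on its brightest probe set, 209701_at, whose changes lay between -0.23 and 0.02. That probe set read 8.21 and 8.19 with DAC at 5 µM, against 8.46, 8.39, 8.52 and 8.37 in DMSO, so both DAC arrays lay below DMSO while the adjusted test was not passed. A dimmer probe set, 209788_s_at, read 7.35 and 7.44 with DAC at 5 µM and 6.37 and 6.74 at 120 nM, against 6.65, 6.74, 7.19 and 7.14 in DMSO. Tested alone it was higher with DAC at 5 µM (0.47, adjusted p = 0.0266) and lower with G668684 at 150 nM (-0.53, adjusted p = 0.0192). Its DMSO arrays fell into the same pairs as those of B2M. The probe set 210385_s_at was higher with DAC at 5 µM (0.38, adjusted p = 0.02) and with G668684 at 7 µM (0.40, adjusted p = 0.0146). The probe sets of ERAP1 thus pointed in different directions with DAC at 5 µM.

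NLRC5, the transactivator that binds class I promoters with RFX proteins, was called in 1 group, and 25% of all genes were called lower in at least 1. It read 5.93 and 6.09 with the higher dose of G669071, against 6.25, 6.15, 6.29 and 6.32 in DMSO, a fall of 0.24 ± 0.08 (limma adjusted p = 0.0243). Both treated arrays lay below DMSO. The call was lost without the G669071 replicate 1 (-0.16, adjusted p = 0.312), without DMSO replicate 4 (-0.22, adjusted p = 0.0538) and against DMSO replicates 1 and 2 alone (-0.19, adjusted p = 0.112). In the other 9 groups its changes lay between -0.18 and 0.03. A rise of NLRC5 passed the test in 0 groups, and in the 8 groups where PSMB8 rose NLRC5 was at or below -0.04.

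Doses of each compound were compared next. TAP1 was higher with DAC at 5 µM than at 120 nM by 0.46 ± 0.08 (limma adjusted p = 0.000548), and with G668684 at 7 µM than at 150 nM by 0.35 ± 0.08 (adjusted p = 0.00659). In each pair both arrays of the higher dose lay above both of the lower. Between the DAC doses, 4 members with a higher mean and 2 with a lower mean had no overlap. Between the G668684 doses these counts were 4 and 1. The G668684 call was lost without replicate 1 of the 150 nM group (0.32, adjusted p = 0.0852). TAP1 was the 1 member called in each of these comparisons, where 14.7% of all genes were called for DAC (8.73% higher, 5.94% lower) and 11.6% for G668684 (7.78% higher, 3.77% lower). For Aza, 1 member was called, where 5.79% of all genes were (2.41% higher, 3.38% lower): PSMB9 read 7.33 and 7.26 at 1500 nM against 7.67 and 7.66 at 150 nM, a fall of 0.37 ± 0.09 (adjusted p = 0.0185). That call was lost whichever of the 4 arrays was left out, with values between -0.405 and -0.335 and adjusted p between 0.0572 and 0.176. For G669071 and G669043, 0 members were called between doses, where 9.35% of all genes (5.65% higher, 3.71% lower) and 3.87% (1.69% higher, 2.18% lower) were. In those comparisons 3 and 2 members had an unadjusted p under 0.05. PSMB8 differed between doses by 0.21 for DAC (95% interval -0.08 to 0.51), 0.09 for G668684 (-0.21 to 0.39), 0.32 for G669071 (0.02 to 0.62), 0.34 for Aza (0.05 to 0.64) and 0.40 for G669043 (0.10 to 0.69), with adjusted p of 0.371, 0.761, 0.192, 0.186 and 0.143. The G669071 difference passed in a fit of its 2 groups alone (adjusted p = 0.0225). Without replicate 2 of DAC at 120 nM, B2M also passed as higher at 5 µM (0.68, adjusted p = 0.00266) and HLA-E as lower (-0.27, adjusted p = 0.0442). The median 95% interval between treated groups reached 0.24 to either side of the difference.

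Equal labelled doses allowed 4 comparisons between compounds, G669043 against Aza at 1500 nM and at 150 nM, and G668684 at 150 nM against each of these at 150 nM. The comparisons with G668684 were added after the values had been seen. At 1500 nM, 1 of 10 members was called, where 2.13% of all genes were (1.47% higher, 0.659% lower). TAPBP read 8.78 and 8.99 with G669043 against 8.53 and 8.42 with Aza, a difference of 0.41 ± 0.11 (95% interval 0.19 to 0.63, limma adjusted p = 0.0497). The arrays of the groups did not overlap. The same held, TAPBP included, for 4 members with a higher mean and 3 with a lower mean. The call was lost whichever of the 4 arrays was left out, with differences between 0.305 and 0.515 and adjusted p up to 0.6. The beta-actin control was 0.07 and 0.34 on these G669043 arrays and 0.04 and -0.01 on the Aza arrays, and its part in the difference was not tested. At 150 nM of the same compounds, 0 members were called and 0 had an unadjusted p under 0.05, where 0.0665% of all genes were called (0.0111% higher, 0.0554% lower). The differences there lay between -0.13 for HLA-E (95% interval -0.29 to 0.02) and 0.15 for NLRC5 (-0.04 to 0.34). For PSMB8 the difference was -0.07 at 150 nM (-0.37 to 0.22). Although 0 members were called there, 1 member with a higher mean and 4 with a lower mean had arrays that did not overlap. With G668684 over Aza at 150 nM, 1 member was higher and 1 lower, where 4.9% of all genes were higher and 4.62% lower (9.52% called). PSMB9 was lower by 0.44 ± 0.09 (95% interval -0.64 to -0.26, limma adjusted p = 0.00295), which held without any of the 4 arrays, and PSMB8 was higher by 0.54 ± 0.14 (0.24 to 0.84, adjusted p = 0.0183). The PSMB8 call was lost without G668684 replicate 1 (0.40, adjusted p = 0.261) and without Aza replicate 1 (0.58, adjusted p = 0.0721) or 2 (0.50, adjusted p = 0.146). With G668684 over G669043 at 150 nM, 1 member was higher and 2 lower, where 8.65% of all genes were higher and 13.5% lower (22.2% called). PSMB8 was higher by 0.62 ± 0.14 (0.32 to 0.91, adjusted p = 0.00377), and PSMB9 was lower by 0.35 ± 0.09 (-0.54 to -0.16, adjusted p = 0.00894) and TAPBP by 0.38 ± 0.11 (-0.61 to -0.16, adjusted p = 0.0133). In each of these calls the arrays of the groups did not overlap, which adds little with 2 arrays in each group. The PSMB8 call was lost without G668684 replicate 1 (0.47, adjusted p = 0.0867), the PSMB9 call without G668684 replicate 1 (-0.32, adjusted p = 0.0858) or G669043 replicate 1 (-0.30, adjusted p = 0.0913), and the TAPBP call without G668684 replicate 2 (-0.33, adjusted p = 0.0878) or G669043 replicate 1 (-0.27, adjusted p = 0.178). TAP1 differed by -0.04 from Aza (-0.22 to 0.12) and by 0.03 from G669043 (-0.14 to 0.20). DAC and G669071 share 120 nM only in the source names, which the titles contradict, so they were not compared, and the values at other doses stand side by side above.

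**Figure D4:**
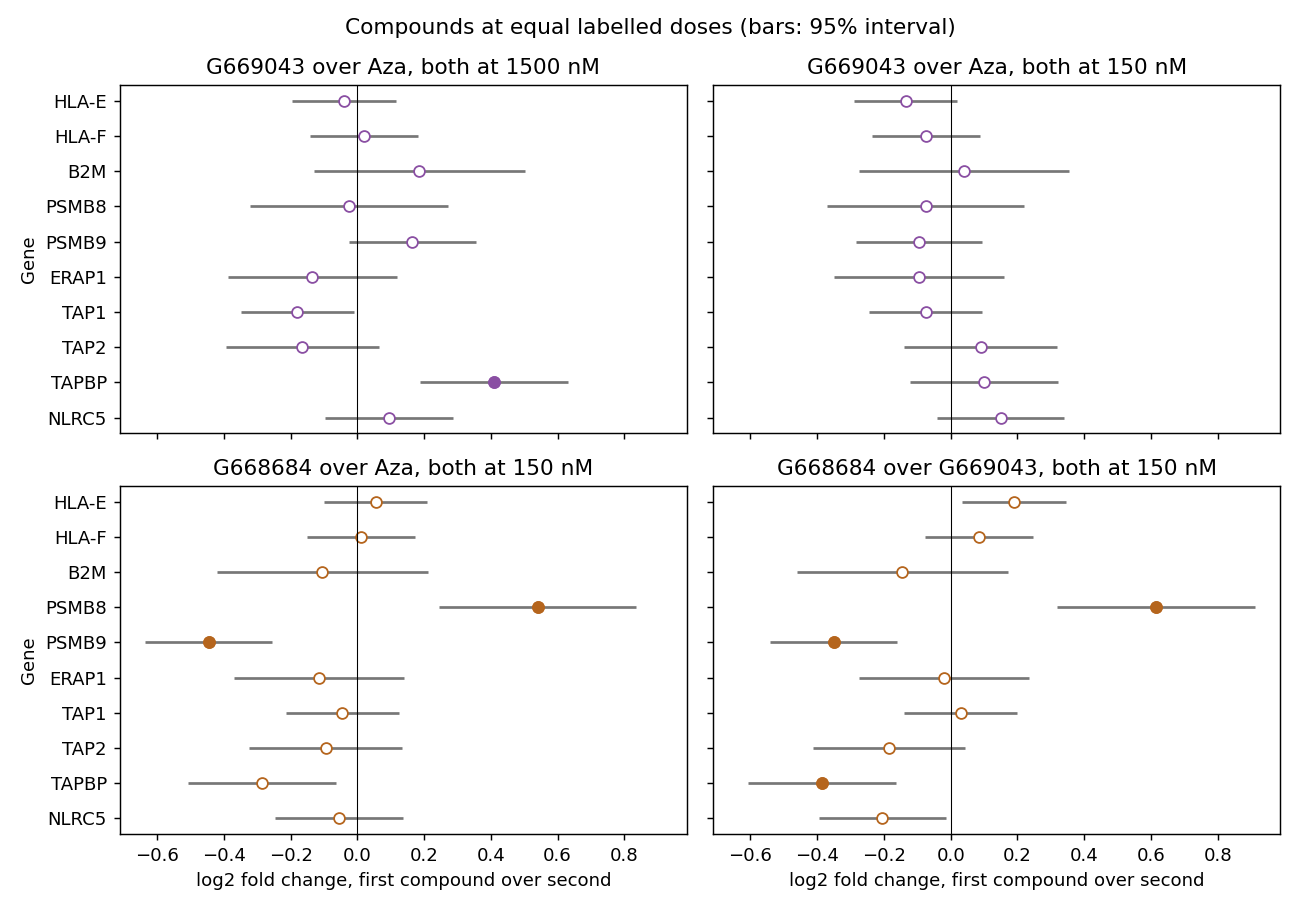
Log2 difference between compounds at equal labelled doses for each gene, G669043 over Aza at 1500 nM and 150 nM (upper row) and G668684 over Aza and over G669043 at 150 nM (lower row). Points are differences of group means with 2 arrays each, bars are 95% intervals, and a filled point passed an adjusted p of 0.05. TAPBP at 1500 nM is the 1 filled point of the upper row, and the lower row has PSMB8 filled above 0 and PSMB9 filled below 0 in both panels, with TAPBP also filled below 0 against G669043.

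The members did not share one profile over the 11 group means. Pearson's r over the 45 pairs of members had a median of -0.06, ranged from -0.9 (PSMB8 and PSMB9) to 0.86 (PSMB8 and HLA-F), and exceeded 0.8 in 1 pair. The 11 points are means of 2 or 4 arrays from one table normalized together, so the coefficients are descriptions. PSMB9 and NLRC5, and PSMB9 and TAPBP, each had r of 0.78. Of all other genes, CHCHD7, TIGD7 and LY6K followed PSMB8 most closely (r of 0.992, 0.991 and 0.985 over 11 groups). PDLIM2 followed HLA-E at 0.981, ANXA2P2 HLA-F at 0.984, TMEM208 TAP1 at 0.971, TOX2 TAPBP at 0.966, SERGEF PSMB9 at 0.965, CETN2 B2M at 0.966, ACTMAP NLRC5 at 0.96, FUT3 ERAP1 at 0.931 and TRMT1 TAP2 at 0.917.

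Among other genes of the pathway, probe sets of class I heavy chains rose with G668684 at 7 µM and DAC at 5 µM. Of 6 tested class I heavy chains and class I-like genes outside the members, 5 rose and 1 fell with G668684 at 7 µM, 4 rose and 1 fell with DAC at 5 µM, and 0 were called with G669043 or Aza at 150 nM. Of all genes, 17.5% rose and 14.7% fell with G668684 at 7 µM, and 18% and 14.2% with DAC at 5 µM. With G669043 and Aza at 150 nM, only 0.87% and 1.49% of all genes were called. The list medians with G668684 at 7 µM and DAC at 5 µM were 0.29 and 0.23, beside -0.04 over all genes in both. HLA-B, a main presenter of peptides to T cells, rose by 0.42 with G668684 at 7 µM (limma adjusted p = 1.18e-05) and by 0.34 with DAC at 5 µM (adjusted p = 0.000129), through an _x_at probe set. HLA-C and HLA-G, also counted as rising in both groups, were read through _x_at probe sets too. Such probe sets may bind shared transcripts, so these rises may not be separate, which was not tested. HFE, a class I-like regulator of iron uptake, was read through the brightest of its 14 kept probe sets, also an _x_at one. On that probe set it fell by 1.00 with the higher dose of G669071 (limma adjusted p = 7.52e-08). It fell by 0.99 with G668684 at 7 µM (adjusted p = 8.63e-08) and by 0.90 with DAC at 5 µM (adjusted p = 2.81e-07). Whether the other kept probe sets of HFE fell is not shown here. Of 14 tested genes of peptide supply and loading, 2 rose and 2 fell with DAC at 5 µM (median 0.05), and 2 rose and 4 fell with Aza at 1500 nM (median -0.09, beside 0.03 over all genes, of which 8.13% rose and 9.18% fell). BLMH, a cytosolic aminopeptidase, fell by 0.72 with G668684 at 7 µM (adjusted p = 8.85e-08). PSME1, a proteasome activator that interferon raises, fell by 0.36 with DAC at 120 nM (adjusted p = 2.23e-05), and PSME3, a nuclear activator, rose by 0.42 with G668684 at 7 µM (adjusted p = 6.23e-05). PSME3 was read through the brightest of its 4 kept probe sets, an _x_at one.

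Subunits of the constitutive proteasome rose with DAC at 5 µM, G668684 at 7 µM and the higher dose of G669071. Of 13 tested subunits of the 20S core, 8 rose with DAC at 5 µM, 8 with G668684 at 7 µM and 7 with the higher dose of G669071, and 0 fell in these groups, where 18%, 17.5% and 15.8% of all genes rose. With G669043 and Aza at 1500 nM, 0 and 3 rose (medians 0 and 0.12), where 5.88% and 8.13% of all genes did. The list medians in the first 3 groups were 0.19, 0.19 and 0.16, beside -0.04, -0.04 and -0.03 over all genes. PSMB5, the subunit that PSMB8 replaces, rose by 0.21 with DAC at 5 µM (limma adjusted p = 0.00187), and PSMB6, the subunit that PSMB9 replaces, rose by 0.20 (adjusted p = 0.00433). PSMB9 was thus called lower and its constitutive counterpart higher with DAC at 5 µM.

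Of 13 tested transcription factors of class I genes, 1 rose and 4 fell with DAC at 5 µM and 2 rose and 5 fell with G668684 at 7 µM, with list medians of 0 and -0.07, where 32.2% of all genes were called in each. IRF9, a transcription factor of interferon signalling, rose by 0.75 with G668684 at 150 nM (limma adjusted p = 1.54e-05), by 0.73 with DAC at 120 nM (adjusted p = 1.84e-05) and by 0.73 with the lower dose of G669071 (adjusted p = 3.3e-05). IRF2, which can act against IRF1, fell by 0.70 with G668684 at 7 µM (adjusted p = 4.56e-06). NFYB, a CCAAT-binding factor of the class I enhanceosome, fell by 0.77 with the higher dose of G669071 (adjusted p = 5.22e-09). IRF1 and RFX5, an activator and a partner of NLRC5, were called in 0 of the 10 comparisons. Of 15 tested interferon receptor and signalling genes, 2 rose and 2 fell with DAC at 5 µM (median -0.03), where 32.2% of all genes were called. With 15 genes, no difference from that share was read from the counts. SOCS1, an inhibitor of interferon signalling, rose in 7 groups, by 0.73 with G668684 at 150 nM (adjusted p = 0.00125) and 0.72 with G669043 at 1500 nM (adjusted p = 0.00358). At least 7 such calls were found for 4.44% of all genes.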

How the data were processed

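HCT116 RNA was measured on HG-U133 Plus 2.0 arrays (Affymetrix). Per the submitters' processing notes, the authors used RMA in Expression Console 1.1, and the deposited values are linear intensities, 1 per probe set, whose log2 was taken here. The array's gene table names 1 symbol for 41091 of 54675 probe sets and several for 1801; 62 are controls and 11721 are unlisted. Probe sets with 1 symbol that reached a log2 of 5 on at least 2 arrays were kept (35146). Each gene was represented by its kept probe set with the highest mean over all arrays (18055 genes). The deposited table holds no detection calls, and the number of arrays limits the precision. No arrays were identical and 0 columns were left unused.

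All 24 arrays entered one limma model (version 3.58.1, R 4.3.3) with a mean for each group, using lmFit and then eBayes with an intensity trend (13 residual and 6.139 prior degrees of freedom). The 19 contrasts set 10 treated groups against DMSO, both doses of 5 compounds against each other, and compounds at equal labelled doses against each other (4 contrasts, the 2 with G668684 added after the values had been seen). A call means a p-value below 0.05 after Benjamini-Hochberg adjustment over all genes of a contrast. Errors are SEs and intervals are 95% intervals. The same fit over all kept probe sets tested probe sets one by one. The model was tested on simulated data. Promoter windows and motifs were read from RefSeq sequences with Python 3.11.15 and pandas 2.3.3, and figures were drawn with matplotlib 3.10.9.

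The members, the gene lists and the rules were chosen with earlier results of these data known. The text names all members, of each other list up to 4 called genes with the largest changes in a contrast, and the most alike genes. PSMB5, PSMB6, IRF1, RFX5 and CIITA are named for their role, outside that rule and with their values seen. Same-numbered arrays showed no pairing common to all groups. Over 55 pairs of groups their deviations correlated at a median of 0.02, ranging from -0.39 to 0.61 and lying above 0.1 in 20. Whether some of the groups share a pairing was not tested. Alternatives were another way to represent genes, no filter, no trend, renormalized or recentred arrays, only the groups compared, parts of the DMSO group, a replicate block and each array left out.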

Additional observations from a re-analysis of the deposited data

How the results depend on the processing

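Of 960 member values with 1 array left out, 905 kept their direction and side of the threshold, 46 lost a call, 9 gained one and 0 turned round; of 2043 values under the other alternatives these counts were 1926, 62, 45 and 10. Leaving out 1 array gave 4 to 6 members called for DAC at 5 µM against DMSO, 3 to 5 for DAC at 120 nM, 4 to 6 and 0 to 3 for the higher and lower dose of G669071, 5 to 6 and 3 to 5 for G668684 at 7 µM and 150 nM, 0 to 2 and 0 for G669043 at 1500 nM and 150 nM, and 2 to 5 and 0 to 1 for Aza at 1500 nM and 150 nM; between doses it gave 1 to 3 for DAC, 0 to 1 for G668684 and 0 for G669071, G669043 and Aza, between G669043 and Aza 0 at both doses, and for G668684 at 150 nM 1 to 2 against Aza and 1 to 3 against G669043. Leave-one-out fits aside, the single call for Aza at 150 nM became 0 under every alternative except no filter, a filter at a log2 of 6 and DMSO replicates 3 and 4 alone, and the single call between G669043 and Aza at 1500 nM became 0 with the mean of all kept probe sets, without _x_at and _s_at probe sets, with no filter, with arrays quantile normalized again or centred on their medians, with no intensity trend and with probe sets tested one by one. The mean of all kept probe sets gave 2 calls between DAC doses, 2 between G668684 doses and 1 between G669071 doses, and ERAP1 turned to 0.375 and 0.335 between the DAC and G668684 doses. Without _x_at and _s_at probe sets 7 members were left, since TAP1, PSMB8 and B2M have no other kept kind; the counts against DMSO were 3 and 1 for DAC at 5 µM and 120 nM, 1 for the lower dose of G669071, 3 for G668684 at 7 µM, 0 for G669043 at 1500 nM and 2 for Aza at 1500 nM, and between doses 0 for DAC, 0 for G668684 and 1 for G669071. There HLA-E turned to -0.343 and -0.083 with DAC at 5 µM and 120 nM, -0.282 with the higher dose of G669071, -0.282 and -0.157 with G668684 at 7 µM and 150 nM, and -0.365 with G668684 over Aza at 150 nM, and HLA-F to -0.02 with both the higher dose of G669071 and G668684 at 7 µM. Arrays quantile normalized again gave 1 call for G669043 at 1500 nM, 2 between DAC doses and 0 between G668684 doses. The replicate block gave 1 call for the lower dose of G669071, 1 for G669043 at 150 nM, 3 for Aza at 1500 nM, 0 for Aza at 150 nM and 3 between DAC doses. In the labels, same-numbered arrays share only a number. Only DMSO has replicates 3 and 4, so the block's changes over DMSO equal those against DMSO replicates 1 and 2 alone. These 2 alternatives are thus not separate. For G669043 at 150 nM they gave 5380 and 5084 calls over all genes. Fits with only the 2 groups of a contrast have fewer arrays and gave 3 and 1 calls for DAC at 5 µM and 120 nM, 3 and 0 for the higher and lower dose of G669071, 2 for G668684 at 150 nM, 0 for G669043 at 1500 nM, 0 for Aza at either dose, 0 between DAC doses, 4 between G669071 doses, 4 between Aza doses and 2 between G669043 and Aza at 1500 nM. DMSO replicates 1 and 2 alone gave 1 call for the lower dose of G669071, 1 for G669043 at 150 nM and 3 for Aza at 1500 nM, and DMSO replicates 3 and 4 alone 5 for DAC at 120 nM. Over all genes, the count for G669043 at 150 nM moved most, at 157 in the fit reported, 0 with only the 2 groups and 5380 with the replicate block; it ranged from 315 to 3121 (1647 reported) for G669043 at 1500 nM, 21 to 1270 (269) for Aza at 150 nM, 1305 to 5504 (3125) for Aza at 1500 nM, 1155 to 4988 (2815) for the lower dose of G669071, 1576 to 5357 (4039) for DAC at 120 nM, 1782 to 5393 (3802) for G668684 at 150 nM and 3846 to 7322 (5809) at 7 µM. Between doses it ranged from 753 to 3660 (2650) for DAC, 725 to 4640 (1689) for G669071, 1049 to 2937 (2086) for G668684, 230 to 1431 (699) for G669043 and 339 to 2788 (1045) for Aza, and between G669043 and Aza from 47 to 1200 (384) at 1500 nM and 5 to 1846 (12) at 150 nM; for G668684 at 150 nM it ranged from 825 to 2554 (1719) against Aza and 1863 to 5523 (4000) against G669043. The cause of these moves was not tested, beyond the fewer probe sets or arrays of an alternative. With 2 arrays in a treated group and no detection calls, values near a log2 of 5, such as PSMB8 in DMSO, have no stated distance from background.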

Other observations

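ULBP2 and MICA, whose products alert natural killer cells, rose with several of the treatments. ULBP2, a ligand of the receptor NKG2D, averaged 10.34 log2 with DAC at 5 µM and with G668684 at 7 µM, against 8.66 ± 0.15 in DMSO (SD, n = 4), a rise of 1.68 ± 0.08 in both (limma adjusted p = 5.47e-12 and 5.7e-12). It rose by 0.81 with Aza at 1500 nM (adjusted p = 1.15e-06) and by 0.61 with G669043 at 1500 nM (adjusted p = 5.21e-05). MICA, a ligand of the same receptor, rose by 0.98 with G668684 at 7 µM (adjusted p = 5.12e-09) and by 0.95 with DAC at 5 µM (adjusted p = 7.13e-09). Of 10 tested stress ligand and checkpoint genes, 3 rose with DAC at 5 µM and 2 with G668684 at 7 µM, where 18% and 17.5% of all genes rose. The list medians in these 2 groups were -0.04 and -0.01, beside -0.04 over all genes in both. In the list, 4 rose with DAC at 120 nM, 4 with G668684 at 150 nM and 0 with G669043 or Aza at 150 nM. In the 10 comparisons with DMSO, 0 fell, where 0.161% to 14.7% of all genes did. Of all genes, 12.5% rose with DAC at 120 nM and 10.7% with G668684 at 150 nM. The list medians in these 2 groups were 0.06 and 0, beside 0 over all genes in both. With G669043 and Aza at 150 nM, only 0.709% and 1.03% of all genes rose.

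Of 13 tested genes of class II presentation, the route that professional antigen-presenting cells use for extracellular antigen, 2 rose with DAC at 5 µM and 4 with G668684 at 150 nM, where 18% and 10.7% of all genes rose. The first count is no higher than that background. HLA-DPB1 rose by 0.82 with the higher dose of G669071 (limma adjusted p = 3.51e-05) and by 0.69 with DAC at 5 µM (adjusted p = 0.000206), and HLA-DRB1 rose by 0.63 with DAC at 5 µM (adjusted p = 6.11e-06). CIITA, the transactivator of class II genes, was called in 0 of the 10 comparisons with DMSO. The list medians were -0.12 with DAC at 5 µM and -0.01 with G668684 at 150 nM, beside -0.04 and 0 over all genes.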
